A study of Mus musculus with 6 samples.

Results

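The Cyp4 genes encode microsomal cytochrome P450 enzymes that put a hydroxyl group on the last (omega) carbon of fatty acids and eicosanoids. The liver table was searched by gene symbol for Cyp4a10, Cyp4a12a, Cyp4a12b, Cyp4a14, Cyp4a31, Cyp4a32, Cyp4f13, Cyp4f14, Cyp4f15 and Cyp4v3, and all 10 were found among its 28450 genes. RNA came from the livers of 6 mice, all male, 12 weeks old and fed a normal diet: 3 Acsm3 knockouts and 3 controls with the genotype label WT. Acsm3 encodes a mitochondrial acyl-CoA synthetase of medium-chain fatty acids. The sources used here do not give the strain, the allele, the litters, or whether the loss was body-wide or limited to a cell type. The p-values measure the spread between these 6 mice. Levels are in FPKM, fragments scaled to the length of the gene and the size of the library. Acsm3 itself was 33.2, 34.4 and 32.2 FPKM in controls 1 to 3 and 0.668, 2.92 and 1.08 in knockouts 1 to 3 (log2 fold change -3.84 ± 0.29 SE, adjusted p = 0.00338, limma), in the direction of the labels.

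Omega-hydroxylation is a minor route of fatty acid breakdown beside mitochondrial beta-oxidation. The hydroxylated fatty acid is oxidised by alcohol and aldehyde dehydrogenases to a dicarboxylic acid, which is activated with coenzyme A and shortened in peroxisomes. NADPH-cytochrome P450 reductase (Por) supplies the electrons. In rodent liver, Cyp4a10 and Cyp4a14 are classical targets of the fatty acid sensor PPAR-alpha. Cyp4a12 genes depend on androgen and male growth hormone pulses and make 20-HETE from arachidonic acid. Cyp4f enzymes act on longer fatty acids and on leukotrienes.

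The members share a short stretch that codes for the haem-binding loop around the cysteine that holds the iron. It is shown because it tells the subfamilies apart while hiding the close paralogs from each other. The lines give 30 coding bases of the GENCODE M21 transcripts (build GRCm38), 5′ to 3′ on the gene's own strand. Capitals mark bases that differ from Cyp4a10 in the Cyp4a genes and from Cyp4f14 in the Cyp4f genes, and Cyp4v3 is printed without capitals.
Cyp4a10, Cyp4a31 and Cyp4a32: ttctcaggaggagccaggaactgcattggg
Cyp4a12a and Cyp4a12b: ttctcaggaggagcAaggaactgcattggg
Cyp4a14: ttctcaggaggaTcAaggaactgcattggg
Cyp4f14: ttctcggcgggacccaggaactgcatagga
Cyp4f13: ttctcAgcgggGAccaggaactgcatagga
Cyp4f15: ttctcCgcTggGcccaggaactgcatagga
Cyp4v3: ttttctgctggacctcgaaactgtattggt

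In each gene 1 intron splits the stretch, after base 17 in the Cyp4a and Cyp4f genes and after base 28 in Cyp4v3. The Cyp4a10 stretch runs from exon 11 to exon 12 at chr4:115529502-115532543 (plus strand), that of Cyp4a14 at chr4:115487299-115489805 (minus strand) and that of Cyp4f14 at chr17:32905666-32906065 (minus strand). Over the whole coding sequence Cyp4a12a and Cyp4a12b were 98.5% identical, with 23 of 1524 bases different. Cyp4a10 was 97.2% identical to Cyp4a32 and 96.6% to Cyp4a31, while Cyp4a14 was only 75.4% to 76.1% identical to the other Cyp4a genes. The Cyp4f genes shared 76.2% to 82.0% with each other, and Cyp4v3 shared 51.9% to 54.2% with the other 9 members.

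How well the deposited values separate close paralogs depends on bases such as those in the following 60-base coding windows, the windows with the most differences in each set. Capitals mark bases that differ from the first gene of each set. All windows lie on the plus strand of GRCm38, in exon 6 of the Cyp4a12 genes and in exon 2 of the others.
Cyp4a12a, chr4:115326629-115326688: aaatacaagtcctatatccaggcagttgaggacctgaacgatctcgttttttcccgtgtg
Cyp4a12b, chr4:115432882-115432941: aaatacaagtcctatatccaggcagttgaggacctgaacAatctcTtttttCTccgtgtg
Cyp4a10, chr4:115519642-115519701: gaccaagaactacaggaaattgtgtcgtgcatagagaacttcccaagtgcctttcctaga
Cyp4a31, chr4:115565022-115565081: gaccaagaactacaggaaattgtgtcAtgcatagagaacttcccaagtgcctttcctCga
Cyp4a32, chr4:115602272-115602331: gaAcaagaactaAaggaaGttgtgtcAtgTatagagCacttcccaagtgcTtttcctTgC

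Outside these windows the Cyp4a12 genes are harder to tell apart, as is Cyp4a32 from Cyp4a10 and Cyp4a31. This does not hold for Cyp4a10 against Cyp4a31. They differed at 2 bases of the 60-base window and at 52 of 1527 coding bases, so the window separates them no better than the rest. The longest identical coding run was 342 bases between the Cyp4a12 genes and 148 bases among Cyp4a10, Cyp4a31 and Cyp4a32. Of all 100-base windows of a transcript, 35.8% in Cyp4a12a and 36.2% in Cyp4a12b occurred unchanged in the other. The share found unchanged in another gene was 20.1% for Cyp4a32, 12.7% for Cyp4a10, 8.22% for Cyp4a31 and 5.77% for Cyp4v3 (all in the gene model Gm45753). It was 0 for Cyp4a14, Cyp4f13, Cyp4f14 and Cyp4f15. The sources used here do not say how fragments from such windows were assigned. The split within these 2 paralog sets is therefore uncertain.

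The main result is that the most abundant Cyp4a genes were lower in the knockout livers while the Cyp4f genes differed by less than the spread between mice. All 10 members passed the filter of a mean of 1 FPKM, and 3 fell in the knockouts at an adjusted p under 0.05: Cyp4a14, Cyp4a10 and Cyp4a31. None rose by limma, and 4 had an unadjusted p under 0.05. Among all 10996 genes tested, 16.5% were called, 2.61% lower and 13.9% higher. The median log2 fold change was -0.51 over the 6 Cyp4a genes and -0.03 over the 3 Cyp4f genes, beside 0.13 over all genes tested. Scaling each library by its median ratio moved the all-gene median to -0.04, and then 8.39% of genes were called lower and 6.61% higher. The 3 Cyp4a genes were called lower there too, and with quantile normalization, where 5.48% of genes were called lower and 6.84% higher. In 4 members, 3 lower and 1 higher, the values of the 2 groups did not overlap at all, beside 41.8% of all genes tested, 7.91% lower and 33.9% higher.

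**Figure D1:**
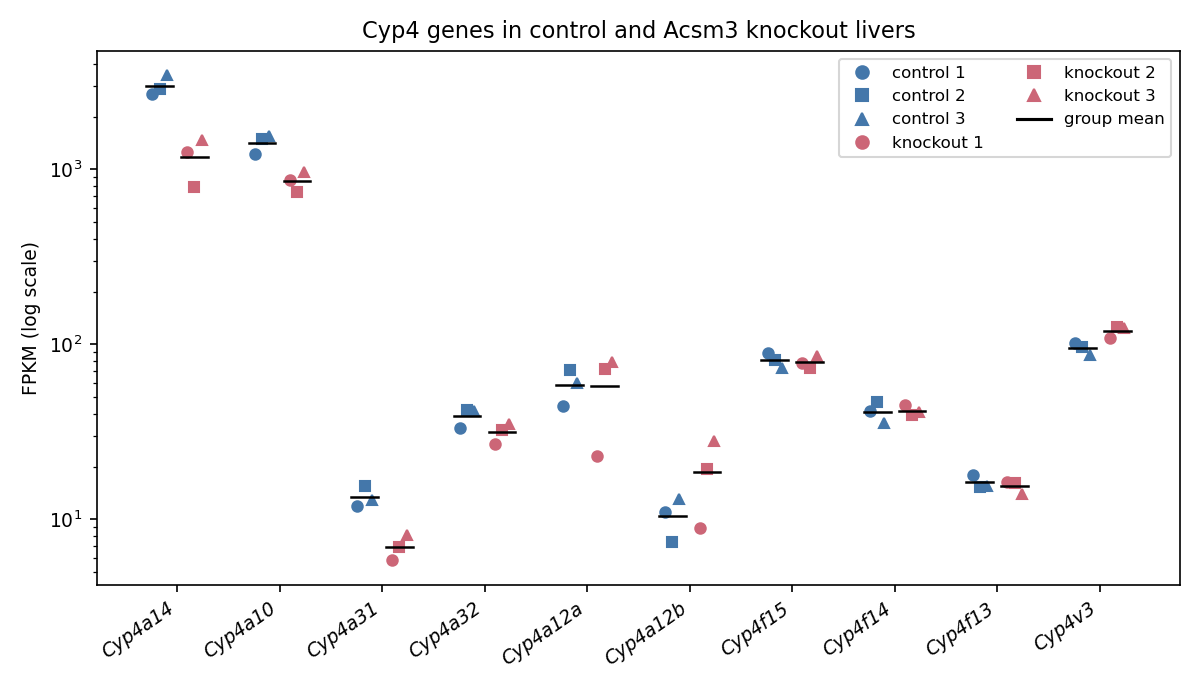
FPKM of the 10 Cyp4 genes in each of the 6 livers on a log axis, controls in blue and Acsm3 knockouts in red, with symbols for the mice and a bar at each group mean. Cyp4a14 sits highest in both groups, and the control and knockout points of Cyp4a14, Cyp4a10 and Cyp4a31 do not overlap.

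Cyp4a14, a PPAR-alpha-induced lauric acid hydroxylase (ENSMUSG00000028715, chr4:115486200-115496142, minus strand), was the most abundant member. It measured 2684, 2861 and 3460 FPKM in controls 1 to 3 and 1250, 793 and 1470 FPKM in knockouts 1 to 3. Every knockout was below every control, and knockout 2 was the lowest. The mean fell 2.56-fold, from 3001 ± 406 to 1171 ± 345 FPKM (SD, n = 3 each), with a log2 fold change of -1.40 ± 0.23 (SE), a 95% interval of -1.95 to -0.84 and an adjusted p of 0.0169 (limma). By mean FPKM it ranked 17th of all tested genes in the controls and 37th in the knockouts. The call was lost without control 2 (adjusted p = 0.0578, limma) and without control 3 (adjusted p = 0.0644, limma).

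Cyp4a10, the paralog that shares induction by PPAR-alpha ligands (ENSMUSG00000066072, chr4:115518264-115533649, plus strand), measured 1219, 1492 and 1542 FPKM in the controls. Its levels in knockouts 1 to 3 were 865, 743 and 971 FPKM, again with no overlap and with knockout 2 lowest. The mean fell 1.65-fold, with a log2 fold change of -0.72 ± 0.14 (95% interval -1.05 to -0.39, adjusted p = 0.0227, limma). Its rank by mean FPKM moved from 33rd to 51st. The call was lost without control 2 (adjusted p = 0.0779), control 3 (0.0788), knockout 1 (0.0672) or knockout 2 (0.0769).

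Cyp4a31, a less studied close paralog of Cyp4a10 (ENSMUSG00000028712, chr4:115563649-115579015, plus strand), was far less abundant. Its levels were 11.9, 15.4 and 12.96 FPKM in the controls and 5.83, 6.95 and 8.18 FPKM in the knockouts. Here knockout 1 was the lowest mouse, and the groups did not overlap, as in the other genes called lower. The mean fell 1.92-fold, with a log2 fold change of -0.85 ± 0.14 (95% interval -1.18 to -0.53, adjusted p = 0.0154, limma). The call was lost without control 2 (adjusted p = 0.0552), control 3 (0.0573) or knockout 2 (0.0587). Fragments of the far more abundant Cyp4a10 could enter these low values, and their part was not tested.

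Cyp4a32, the other close paralog (ENSMUSG00000063929, chr4:115600969-115621602, plus strand), had 33.1, 41.9 and 41.5 FPKM in the controls and 26.8, 32.5 and 34.9 FPKM in the knockouts. The groups overlapped, since knockout 3 lay above control 1. Its log2 fold change was -0.30 ± 0.13, with a 95% interval of -0.61 to 0.02 and an adjusted p of 0.160 (limma). Cyp4a10, Cyp4a31 and Cyp4a32 together summed to 1263, 1549 and 1596 FPKM in the controls and 898, 782 and 1014 FPKM in the knockouts. The mean of this sum was 1.64-fold lower, without overlap and without a test, and it is mostly Cyp4a10.

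The 2 Cyp4a12 genes varied most between mice. Cyp4a12a, the main 20-HETE synthase of male mouse tissues (ENSMUSG00000066071, chr4:115299046-115332815, plus strand), had 44.4, 71.3 and 60.3 FPKM in the controls and 22.9, 72.0 and 79.0 FPKM in the knockouts. Knockout 1 was the lowest mouse and knockout 3 the highest, so the knockouts spanned the whole control range. The log2 fold change was -0.18 ± 0.46 (95% interval -1.27 to 0.92, adjusted p = 0.816, limma). Without knockout 1 it turned to 0.38 (adjusted p = 0.264, limma).

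Cyp4a12b (ENSMUSG00000078597, chr4:115411624-115439034, plus strand) had 11.0, 7.38 and 12.995 FPKM in the controls and 8.95, 19.3 and 27.9 FPKM in the knockouts. Knockouts 2 and 3 exceeded every control, whereas knockout 1 lay within the control range. Its log2 fold change was 0.68 ± 0.39 (95% interval -0.24 to 1.61, adjusted p = 0.254, limma). Because the Cyp4a12 genes share so much sequence, their sum is the safer value. The sum was 55.3, 78.7 and 73.3 FPKM in the controls and 31.8, 91.3 and 107 FPKM in the knockouts, with overlapping groups.

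**Figure D2:**
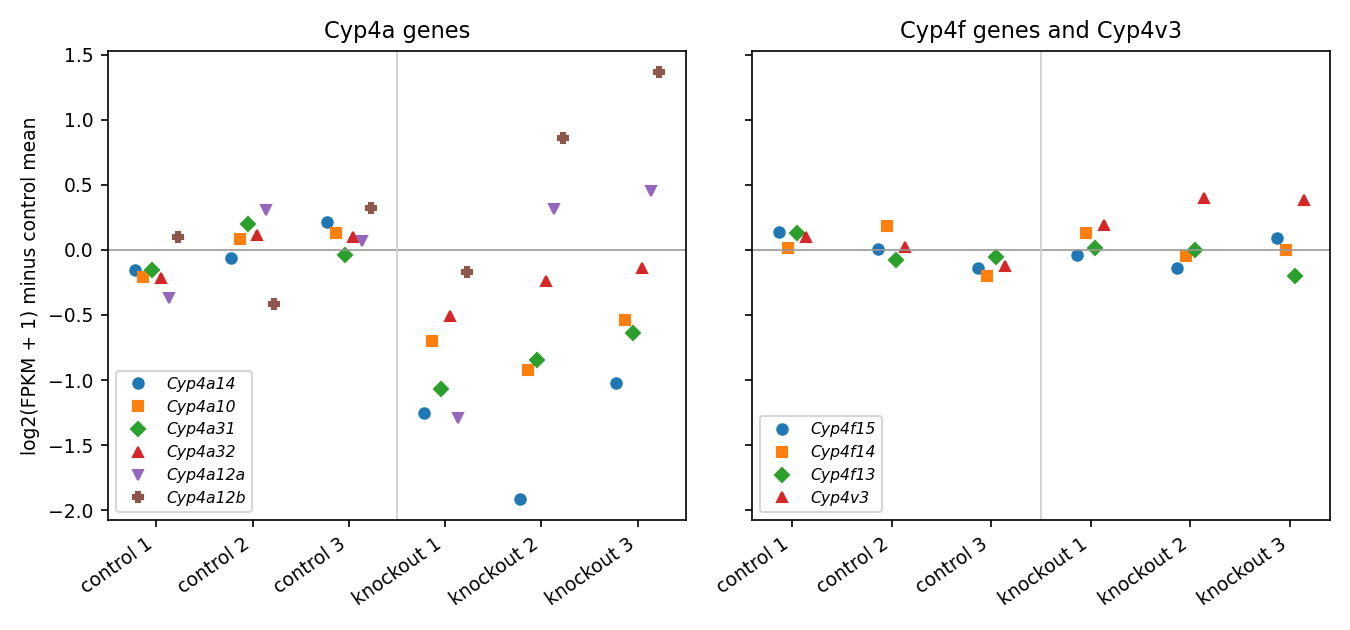
Each member's log2(FPKM + 1) minus its control mean, for each of the 6 mice, with the Cyp4a genes on the left and the Cyp4f genes and Cyp4v3 on the right. Cyp4a14, Cyp4a10 and Cyp4a31 lie below every control in all 3 knockouts, the Cyp4a12 genes scatter around the control level, and the Cyp4f genes stay close to it.

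The Cyp4f genes did not pass the test, and the intervals of their differences were narrow, but these intervals hold the scaling of the libraries fixed. Cyp4f15 (ENSMUSG00000073424, chr17:32685627-32703352, plus strand) had 89.1, 81.0 and 73.1 FPKM in the controls and 78.4, 73.2 and 86.3 FPKM in the knockouts. Its log2 fold change was -0.03 ± 0.10 (95% interval -0.27 to 0.21, adjusted p = 0.860, limma). Cyp4f14, the liver leukotriene B4 omega-hydroxylase (ENSMUSG00000024292, chr17:32905071-32917342, minus strand), had 41.4, 46.8 and 35.5 FPKM in the controls and 45.0, 39.6 and 40.9 FPKM in the knockouts. The knockouts all lay inside the control range, and the log2 fold change was 0.03 ± 0.11 (95% interval -0.24 to 0.29, adjusted p = 0.892, limma). Cyp4f13 (ENSMUSG00000024055, chr17:32924688-32947402, minus strand) had 17.8, 15.3 and 15.6 FPKM in the controls and 16.3, 16.2 and 13.9 FPKM in the knockouts. Its groups overlapped, with a log2 fold change of -0.06 ± 0.10 (95% interval -0.29 to 0.16, adjusted p = 0.665, limma). The sign of each of these 3 small differences turned under at least 1 other scaling of the libraries. Over the 11 settings other than leaving out a mouse, Cyp4f13 ran from -0.27 to 0.0079, Cyp4f15 from -0.24 to 0.046 and Cyp4f14 from -0.18 to 0.10. None passed there, and the lowest adjusted p was 0.0591 for Cyp4f13 (limma).

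Cyp4v3, the mouse counterpart of the gene mutated in human Bietti crystalline dystrophy (ENSMUSG00000079057, chr8:45304944-45333216, minus strand), moved the other way. It had 101, 96.4 and 86.9 FPKM in the controls and 108, 125 and 124 FPKM in the knockouts. Every knockout exceeded every control, as in 33.9% of all genes tested. The mean was 1.26-fold higher, with a log2 fold change of 0.33 ± 0.09 (95% interval 0.10 to 0.55), but the adjusted p was 0.0582 (limma). With quantile normalization the adjusted p was 0.0438 and with all libraries scaled to 1 summed FPKM it was 0.0232, whereas median-ratio scaling gave a log2 fold change of 0.11 with an adjusted p of 0.553.

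**Figure D3:**
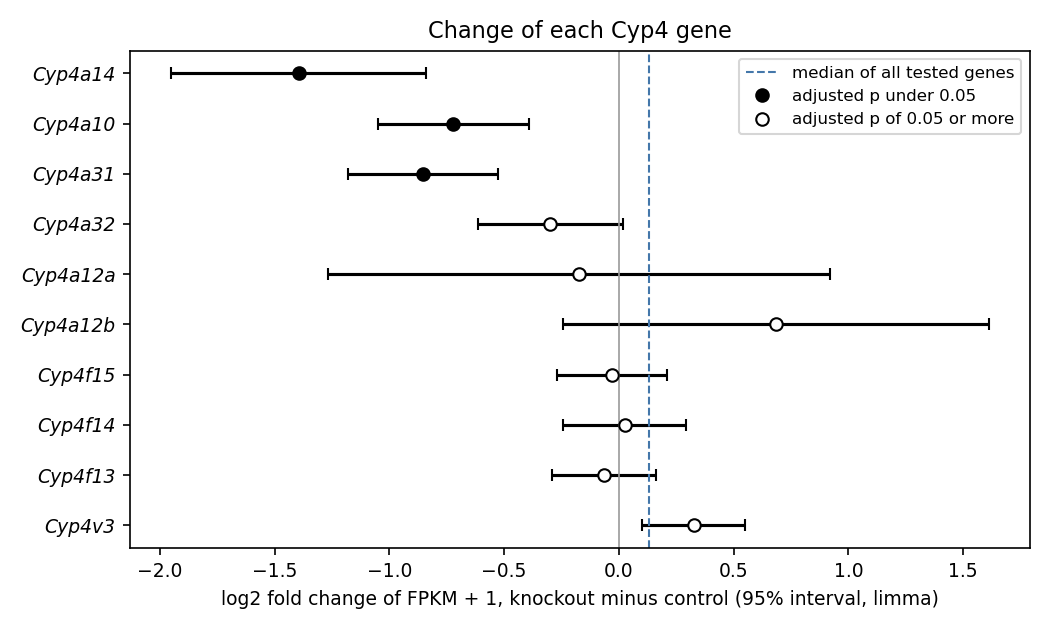
Log2 fold change of FPKM + 1, knockout minus control, of each Cyp4 gene with its 95% interval from limma, with filled points at an adjusted p under 0.05. The dashed line marks the median of all tested genes, 0.13. Cyp4a14, Cyp4a10 and Cyp4a31 lie left of it, and the widest intervals belong to the Cyp4a12 genes.

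In the order of levels, which FPKM allow to be compared between genes, Cyp4a14 and Cyp4a10 stood far above the rest in the controls. Cyp4v3 (94.9 ± 7.4 FPKM) and Cyp4f15 (81.1 ± 8.0 FPKM) followed, with overlapping ranges. Next came Cyp4a12a, Cyp4f14 and Cyp4a32, each overlapping its neighbour, and then Cyp4f13, Cyp4a31 and Cyp4a12b, again overlapping. In the knockouts the ranges of Cyp4a14 and Cyp4a10 overlapped, although Cyp4a14 was the higher in all 3 mice. Cyp4a31 dropped to the last place (6.99 ± 1.17 FPKM), with no overlap with Cyp4f13 above it. By its mean Cyp4a12b stood just above Cyp4f13, but their ranges overlapped and it was the higher in only 2 of the 3 knockouts.

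Summed over the 6 Cyp4a genes, expression was 4003, 4489 and 5129 FPKM in controls 1 to 3 and 2180, 1666 and 2591 FPKM in knockouts 1 to 3. That is a 2.12-fold lower mean sum, and the groups did not overlap. The 3 Cyp4f genes summed to 124 to 148 FPKM in the controls and 129 to 141 FPKM in the knockouts. All 10 members made up 1.08% to 1.38% of the summed FPKM of all genes in the controls and 0.524% to 0.759% in the knockouts. Within the 10, the share of Cyp4a14 was 62.8% ± 2.2 in the controls and 48.1% ± 5.9 in the knockouts (SD, n = 3 each), and that of Cyp4a10 was 29.7% ± 1.6 and 36.1% ± 2.4. No test was made of these sums and shares.

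The balance between paralogs within a mouse was compared in 6 pairs as a log2 ratio of FPKM + 1. With 3 mice against 3, the exact two-sided permutation test cannot give a p below 0.1. The ratio of Cyp4a14 to Cyp4a10 was 1.08 ± 0.12 in the controls and 0.41 ± 0.27 in the knockouts, lower in every knockout (exact permutation p = 0.1, adjusted over the 6 pairs 0.2). Cyp4a31 relative to Cyp4a32 was -1.47 ± 0.12 and -2.02 ± 0.05, again separate (exact permutation p = 0.1, adjusted 0.2). Cyp4a12a relative to Cyp4a12b was 2.39 ± 0.63 and 1.53 ± 0.30, separate as well (exact permutation p = 0.1, adjusted 0.2). Cyp4a10 relative to Cyp4a31 differed by 0.13 between the groups (exact permutation p = 0.6, adjusted 0.72). The Cyp4f14 to Cyp4f15 ratio differed by 0.06 (exact permutation p = 0.8, adjusted 0.8) and the Cyp4f14 to Cyp4f13 ratio by 0.09 (exact permutation p = 0.6, adjusted 0.72). The exact test cannot pass the threshold for any of these 6 differences, and no model-based test of them was run.

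The genes lie in 2 clusters. The Cyp4a cluster spans 541 kb of chromosome 4 (115106323 to 115647723). It holds 12 listed genes, of which 7 were tested, all of them Cyp4 genes: 3 were called lower and 0 higher. Of the 11 tested genes within 500 kb on either side, 1 was called lower and 2 higher. Cyp4a14 and Cyp4a10 lie side by side on opposite strands with their first exons facing each other. The Cyp4f cluster spans 490 kb of chromosome 17 (32468462 to 32958695), with 17 listed genes and 8 tested, of which 1 was called higher (Cyp4f16) and 0 lower. Cyp4f16 averaged 0.727 FPKM in the controls and entered the test only through the knockouts, so its call gives no direction for the cluster. In the flanks of the Cyp4f cluster 0 of 11 tested genes were called. Among all genes tested, 13.9% were called higher and 2.61% lower.

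**Figure D4:**
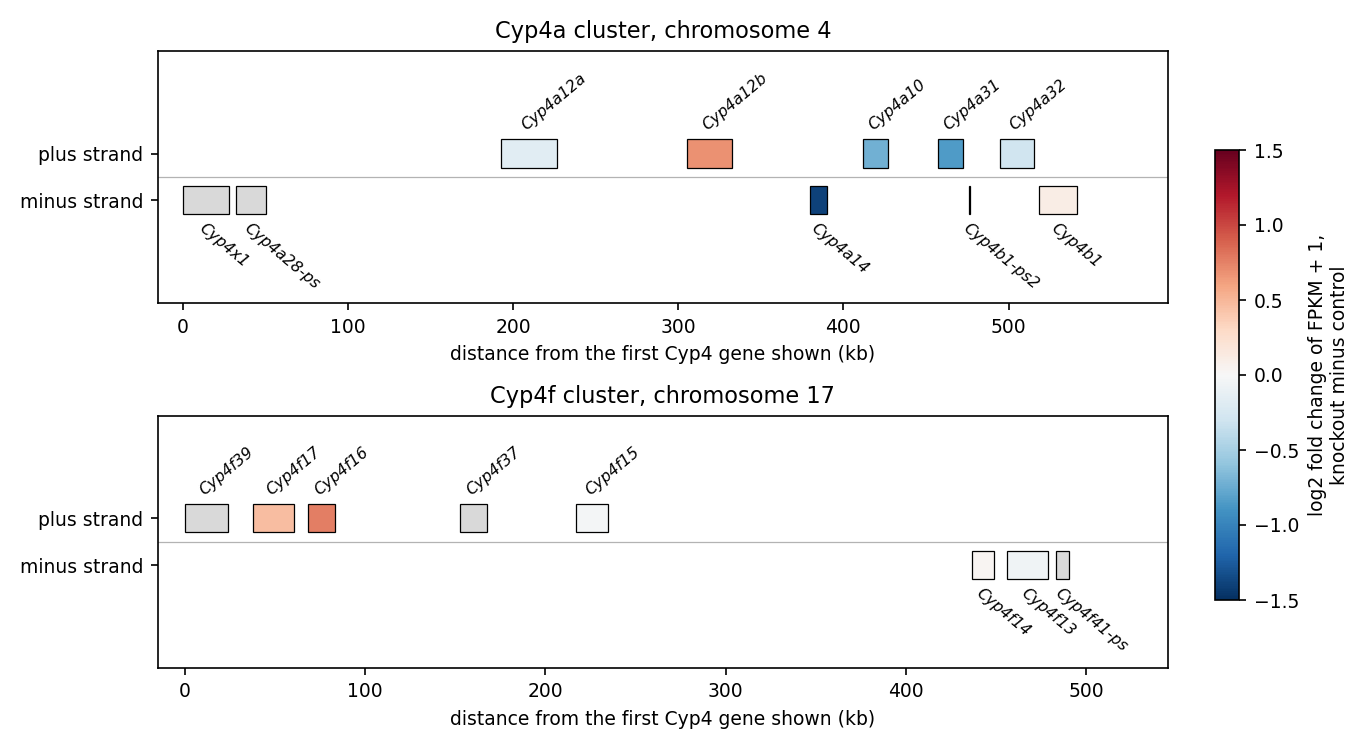
Maps of the Cyp4a cluster on chromosome 4 and the Cyp4f cluster on chromosome 17, with each Cyp4 gene as a box on its strand, placed by its distance in kb from the first gene and coloured by the log2 fold change (knockout minus control); grey genes were under the filter. The deepest blue is Cyp4a14 at -1.40, beside Cyp4a10 at -0.72 and Cyp4a31 at -0.85, while the 3 Cyp4f members are nearly white.

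RefSeq promoter windows (GRCm38.p6, 250 bases before to 50 after the start) were at hand for Cyp4a32, Cyp4f13, Cyp4f14, Cyp4f15 and Cyp4v3, and not for Cyp4a10, Cyp4a12a, Cyp4a12b, Cyp4a14 and Cyp4a31. The direct repeat bound by PPAR-alpha with its partner RXR, a pair of AGGTCA copies 1 base apart, was searched on both strands and found in 0 of these 5 genes and in 0.0396% of all 32851 windows. Its looser form, a pair of AGGNCA copies 1 base apart, was also found in 0 of 5 (0.381% of all windows). A single AGGTCA was found in 0 of 5 (16.3%) and a single AGGNCA in 5 of 5 (57.2% of all windows). The member figures count genes, while the percentages count windows. Cyp4f14 had more than 1 window and its AGGNCA matches lay in only 1 of them. The 5 of 5 is therefore not like for like with the 57.2%, and no excess can be read from it. The STAT motif TTCNNNGAA was present in Cyp4f13 (8.3% of all windows), and TATAAA in Cyp4a32 (13.6%). These letters overlap in part, and a match is a description of the window only.

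Of 11 other Cyp4 genes looked for, 8 were listed and 4 passed the filter of a mean of 1 FPKM. Among these, 2 were called higher, and both averaged under 1 FPKM in the controls, so they entered the test only through the knockouts and their count is no evidence of direction. Without the filter 1 of them was called, and with a filter of 5 FPKM 0. Cyp4f18, known as a leukotriene B4 hydroxylase of neutrophils, had 0.528, 0.579 and 0.412 FPKM in the controls and 2.08, 2.40 and 1.40 in the knockouts. Its log2 fold change was 0.96 ± 0.15 (adjusted p = 0.0144, limma), lost without control 2 (0.0521) or control 3 (0.0573), and without knockout 2 the gene was under the filter. Cyp4f16 had 0.669, 0.754 and 0.759 FPKM in the controls and 2.47, 2.10 and 1.37 in the knockouts, with a log2 fold change of 0.77 ± 0.15 (adjusted p = 0.0244, limma). That call was lost without any of the mice but knockout 3, with adjusted p up to 0.0882. In both genes every knockout lay above every control, at levels far under those of the members. Cyp4f17 (log2 fold change 0.46, adjusted p = 0.104, limma) and Cyp4b1 (0.11, adjusted p = 0.529, limma) did not pass. The summed level of 10 neutrophil markers was 2.0005 to 3.29 FPKM in the controls and 4.35 to 11.7 FPKM in the knockouts, and Ly6g was at 0. Of the 4 tested, the 3 that were called higher had also entered only through the knockouts, and S100a9, above 1 FPKM in both groups, did not pass (adjusted p = 0.191, limma). The part of such cells in the Cyp4f18 values was not tested.

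The Cyp4a fall was set beside other genes known to answer to PPAR-alpha. Of 39 tested targets outside the Cyp4 family, 11 fell and 4 rose, with a median log2 fold change of -0.16. Here and in the lists below, the counts stand beside 13.9% of all tested genes called higher and 2.61% lower. The largest falls were in the acyl-CoA thioesterases Acot3 (-2.47) and Acot1 (-1.05) and the fatty acid binding protein Fabp1 (-1.09). Among the targets that rose were the lipid droplet proteins Cidec (2.15) and Plin2 (0.71) and the fatty acid binding protein Fabp4 (1.05), which is typical of adipocytes and macrophages. Fabp4 and Plin2 did not pass without control 2 or control 3 (adjusted p 0.0519 to 0.0581, limma), nor Plin2 without knockout 2 (0.0671). The 11 falls dropped to 4 without control 2, control 3 or knockout 2, to 5 without knockout 1, to 7 without control 1 and to 6 without the filter. With median-ratio scaling 14 targets fell and 2 rose, and with quantile normalization 7 fell and 5 rose. Ppara itself, the receptor gene, had 58.0, 67.2 and 80.4 FPKM in the controls and 49.9, 68.7 and 49.1 FPKM in the knockouts, with overlapping groups (log2 fold change -0.29 ± 0.17, adjusted p = 0.257, limma).

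**Figure D5:**
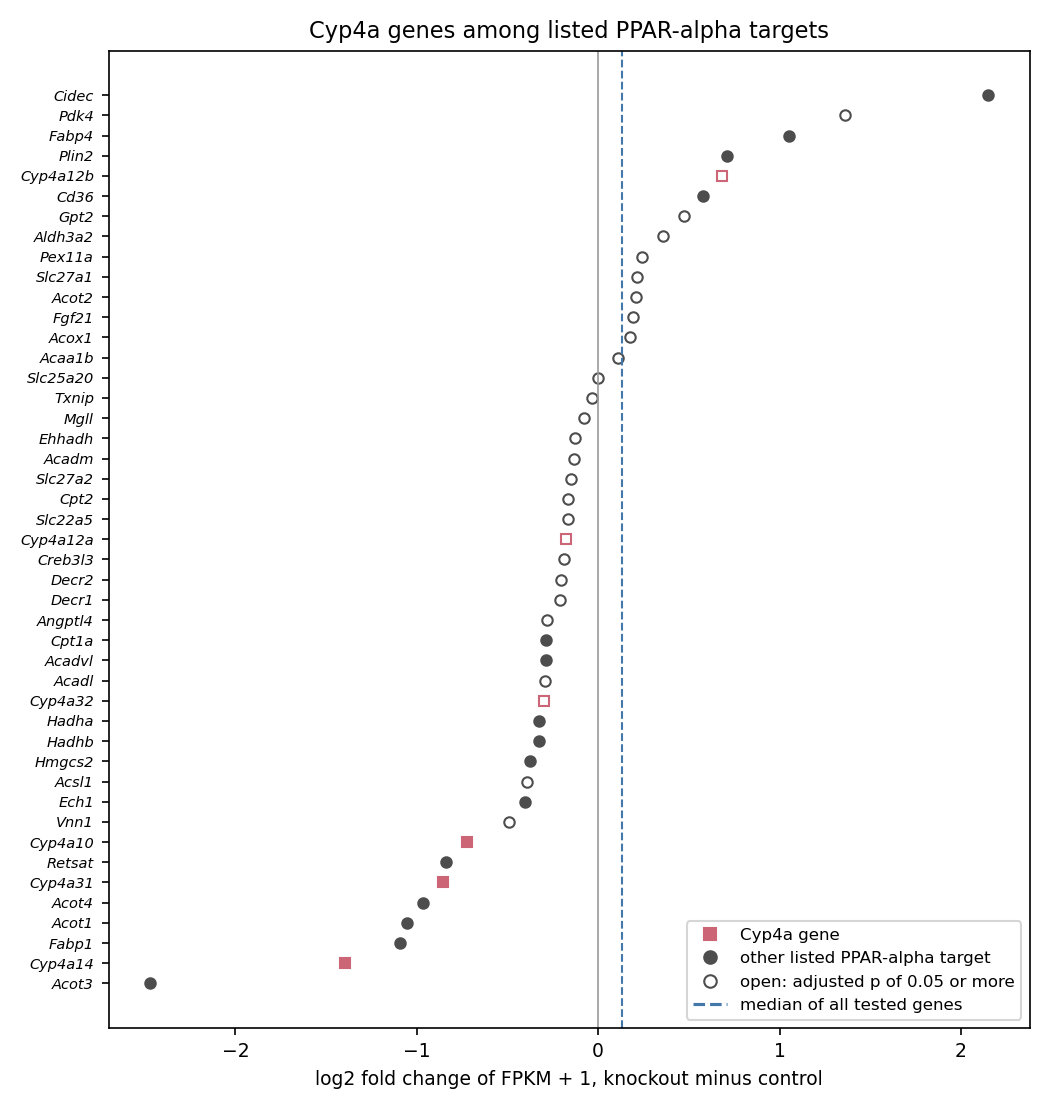
Log2 fold change (knockout minus control) of the 6 Cyp4a genes, as red squares, among the other listed PPAR-alpha targets that were tested, as grey circles; open symbols have an adjusted p of 0.05 or more and the dashed line is the median of all tested genes. Cyp4a14, Cyp4a31 and Cyp4a10 lie near the lower end, between Acot3 at -2.47 and the many targets close to 0.

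Along the pathway, 3 of 7 tested genes of electron donors and P450-binding proteins rose and 0 fell, with a median log2 fold change of 0.27. Those that rose were Cyb5r3 (cytochrome b5 reductase, log2 fold change 0.68), Pgrmc1 (a haem protein that binds P450 enzymes, 0.63) and Cyb5b (0.27). None of them passed without control 2 or control 3 (adjusted p 0.0517 to 0.103, limma). Pgrmc1 and Cyb5b were also lost without knockout 1 or 2 (adjusted p up to 0.114), and Cyb5b without control 1 (0.0667) or knockout 3 (0.0552). Median-ratio scaling, and likewise no filter, left 1 of the 7 higher, the former with 1 lower. Por had 256, 205 and 244 FPKM in the controls and 131, 174 and 242 FPKM in the knockouts, with overlapping groups (log2 fold change -0.41 ± 0.22, adjusted p = 0.230, limma). Without knockout 3 its adjusted p was 0.0433.

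Of the 30 tested genes that act after the hydroxylation step, 6 fell and 1 rose, with a median log2 fold change of -0.14. The falls were led by Acot3 (-2.47), the dicarboxylyl-CoA thioesterase Acot4 (-0.97) and the dienoyl-CoA isomerase Ech1 (-0.40), and the peroxisomal branched-chain oxidase Acox2 rose (0.45). Acot3, Acot4 and Ech1 are also counted among the PPAR-alpha targets above, and Acot3 again among the female-biased genes below. Other lists share genes too, so their counts are not independent. Acox2 and Ech1 did not pass without control 2, control 3, knockout 1 or knockout 2 (adjusted p 0.0559 to 0.0912, limma), nor Acot4 without control 3 (0.0525). The 6 falls dropped to 1 without control 3, to 2 without control 2, knockout 1 or knockout 2 or without the filter, and to 3 without control 1. With median-ratio scaling, 10 of these genes fell and 0 rose.

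Among 25 nuclear receptors and coregulators that act on Cyp4 genes, 3 rose and 1 fell (median log2 fold change 0.04). The share called, 16.0%, was close to the 16.5% of all genes tested. Hnf4a, a master regulator of hepatocyte genes (0.70), and the coactivators Ncoa3 (0.39) and Crebbp (0.29) rose, and Nr1i3, the xenobiotic receptor CAR, fell (-0.47). None of the 4 passed without control 2, control 3 or knockout 1 (adjusted p 0.0558 to 0.138, limma). Some were also lost without knockout 2 (up to 0.129), control 1 (up to 0.0950) or knockout 3 (Crebbp, 0.0527). Median-ratio scaling gave 0 higher and 4 lower, so the direction of this list depends on the scaling.

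Genes that differ between the sexes bear on the Cyp4a12 genes, which are male-biased, and on Cyp4a14, which is higher in females. Of 23 tested male-biased liver genes other than Cyp4a12, 4 rose and 2 fell, with a median log2 fold change of 0.35. They included the pheromone-binding Mup20 (1.93), the selenium-binding Selenbp2 (1.79) and complement C6 (1.43) among the higher, and the steroid dehydrogenases Hsd3b5 (-1.501) and Hsd3b2 (-0.48) among the lower. Selenbp2, under 1 FPKM in the controls, and Hsd3b5, under 1 FPKM in the knockouts, passed the filter only through their higher group. Of 17 tested female-biased genes, 5 fell and 2 rose, with a median of -0.46. Acot3 (-2.47), the steroid hydroxylase Cyp17a1 (-2.02) and Cyp2b9 (-1.58) fell, while the oestrogen sulfotransferase Sult1e1 (3.06) and the proton pump subunit Atp6v0d2 (1.47) rose. Both that rose passed the filter only through the knockouts, and 1 of the 5 that fell passed only through the controls. The 5 falls were 3 without control 2, knockout 1 or knockout 2 and 3 without the filter. Of 16 genes of growth hormone signalling, 2 rose (Stat5a 0.49, Jak2 0.37) and 2 fell (Igfals -0.81, Igf1 -0.51), beside 13.9% and 2.61% of all genes tested. These directions depend on the scaling: median-ratio scaling gave 0 higher and 3 lower, quantile normalization 0 higher and 2 lower, and common sums 5 higher and 2 lower. Those 4 did not pass without control 2 or control 3 (adjusted p 0.0613 to 0.110, limma). Igf1 and Jak2 were also lost without control 1, knockout 1 or knockout 2 (up to 0.122), Igfals without control 1 or knockout 1 (up to 0.0547) and Stat5a without knockout 2 (0.0929). Atp6v0d2, Hsd3b2 and Hsd3b5 did not pass without control 1, control 2, control 3 or knockout 2 (0.0518 to 0.0923), nor Hsd3b5 without knockout 1 (0.0812).

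A further list was drawn up around arachidonate and leukotrienes, the substrates of the Cyp4a12 and Cyp4f enzymes. It takes in Cyp2c genes and Ephx1, whose part in arachidonate metabolism was not tested here. Of its 23 tested genes, 5 rose and 1 fell (median log2 fold change 0.31). Cyp2c70 (1.36), Cyp2c55 (1.31) and the epoxide hydrolase Ephx1 (0.96) rose, and the soluble epoxide hydrolase Ephx2 fell (-0.37). Cyp2c55 is 1 of 2 genes among the 5 that passed the filter only through the knockouts, and without knockout 3 it was under the filter. The 5 that rose were 1 or 2 without control 2, control 3, knockout 1 or knockout 2, 3 without knockout 3 or with median-ratio scaling, and 9 with common sums. Of 49 other P450 genes tested, 9 rose and 5 fell, with a median of 0.02. With median-ratio scaling 3 rose and 5 fell, and without the filter 3 rose and 3 fell. Those that rose were 3 without control 2, 2 without control 3, knockout 1 or knockout 2, and those that fell were 2 to 6 with 1 mouse left out. The drug-metabolising Cyp3a11 rose (1.51), and Cyp17a1 (-2.02), Cyp2b9 (-1.58) and the cholesterol hydroxylase Cyp46a1 (-1.19) fell. Without control 2 or control 3, Cyp2c70, Cyp2c55 and Ephx2 did not pass (adjusted p 0.0695 to 0.113, limma), and the same held without knockout 1 or knockout 2 (0.0616 to 0.0982). Without control 1, Cyp2c55, Ephx2 and Cyp46a1 were lost (up to 0.0856), and without knockout 3 Cyp2c70 and Cyp46a1 (up to 0.0779). Cyp46a1 was also lost without control 2, knockout 1 or knockout 2 (up to 0.116).

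Markers of other cells moved with the genotype, and in whole liver fewer cells of a type and less RNA per cell cannot be told apart. Of 19 tested hepatocyte markers 2 rose and 3 fell, and their summed level was 62054 to 70976 FPKM in the controls and 50360 to 54509 FPKM in the knockouts without overlap. None of them was at 0. Albumin (Alb) weighs heavily in the sum, with a mean of 34484 of 67600 FPKM in the controls and 22584 of 52002 FPKM in the knockouts. It was itself called lower (log2 fold change -0.61, adjusted p = 0.0314, limma), so values relative to the sum depend in part on this 1 gene. Relative to that sum, the Cyp4a genes together were 6.70% ± 0.45 in the controls and 4.11% ± 0.77 in the knockouts (SD, n = 3 each), 1.63-fold lower with no overlap. On this scale Cyp4a14 was 1.98-fold lower, Cyp4a31 1.48-fold and Cyp4a10 1.27-fold, each without overlap, while Cyp4f14 and Cyp4v3 were higher without overlap. Of the markers of hepatocytes near the central vein, 5 of 12 tested rose and 0 fell, and of those near the portal tract 0 of 14 rose and 4 fell. All marker counts stand beside 13.9% of all tested genes called higher and 2.61% lower. Among other cells, 9 of 11 stellate cell and fibroblast markers rose and 0 fell (summed 43.5 to 52.5 FPKM against 98.6 to 140 FPKM). Of the macrophage markers 8 of 14 rose and 2 fell (200 to 305 against 331 to 623 FPKM), and of the endothelial markers 4 of 9 rose and 0 fell (71.4 to 82.1 against 92.4 to 118 FPKM). Of those that rose, 3 of the stellate and 4 of the macrophage markers passed the filter only through the knockouts, as did 1 of the markers near the central vein and 1 of the adipocyte markers. Few markers of bile duct cells (1 of 2 rose) and adipocytes (3 of 4 rose, 1 fell) passed the filter, and of 12 T, B and NK cell markers 0 did. The part of these cells in the Cyp4 values was not tested.

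Each member was covered by enough fragments to give a value in every mouse. The totals implied by the steps of the FPKM values were 15400000 to 16300000 fragments per mouse, an estimate. On these totals the least covered value was that of Cyp4a31 in knockout 1, at about 229 fragments, and the best was that of Cyp4a14 in control 3, at about 140865. The spread between mice in the Cyp4a12 genes, with a coefficient of variation of 52.7% for Cyp4a12a and 50.6% for Cyp4a12b in the knockouts, rests on about 866 to 3083 and 335 to 1075 fragments per knockout mouse, respectively. In Cyp4f13 it was 8.53% in the controls and 8.71% in the knockouts.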

How the data were processed

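Poly(A)-selected RNA of 6 mouse livers was sequenced, per the labels' protocols. The authors deposited 1 table of FPKM values. Per the submitters' processing notes, HISAT2 2.0.4, Bowtie2 2.2.6, StringTie 1.3.0 and GRCm38 were used. The sources used here do not state strandedness or how shared fragments were counted. Genes averaging 1 FPKM or more (10996) were tested as log2(FPKM + 1) with limma 3.58.1 in R 4.3.3 (eBayes with trend), adjusted by Benjamini-Hochberg over all of them, threshold 0.05. Fold changes on this scale understate changes of low genes. On simulated data of this comparison (10996 genes, 200 changed) the test found 47.2% of changes at 1.5-fold, 79.4% at 2-fold and 93.9% at 4-fold, and unchanged genes were 6.38% of its calls. Depth was estimated from FPKM steps, with 98.0% to 98.2% of low values (below 20 fragments) whole to within 0.1. Members, context lists and marker lists were chosen with earlier results of these data known. From each context list the text names up to 3 called genes of largest change in each direction, and always Ppara and Por. 17 alternative settings were run.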

Additional observations from a re-analysis of the deposited data

How the results depend on the processing

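Cyp4a14, Cyp4a10 and Cyp4a31 kept a negative sign in all 17 alternatives. Of the 10 members, 3 were called in total; without the low-expression filter 1 was called, lower (Cyp4a31; adjusted p of Cyp4a14 0.0576 and Cyp4a10 0.0729, limma), and leaving out 1 mouse at a time gave 0 to 3, in total and lower. That count was 0 without control 2 or control 3, 1 without knockout 2 and 2 without knockout 1. These fits have fewer mice. Called higher was 1 member, Cyp4v3, with quantile normalization, common sums and array weights. The Cyp4f sum, log2 ratio -0.02, was -0.23 with median-ratio scaling. Cyp4a12a ran from -0.49 to 0.38 with 1 mouse left out, positive without knockout 1. Cyp4f13 turned to 0.0079 with common sums, 0.00098 without control 1 and 0.0056 without knockout 3. Cyp4f15 turned to 0.046 with common sums, 0.0397 without control 1 and 0.025 without knockout 2. Cyp4f14 turned to -0.18 with median-ratio scaling, -0.031 with quantile normalization, -0.055 with array weights, -0.0746 without control 3 and -0.027 without knockout 1, with 0.119 as the highest value with 1 mouse left out. The Cyp4a10 to Cyp4a31 difference turned to -0.10 with a pseudocount of 5, and that of Cyp4f14 to Cyp4f15 to -0.0068 without control 1 and was also below 0 without knockout 1, with 0.148 as the highest value with 1 mouse left out. The cause was not tested. Deviations of same-numbered mice correlated at 0.111, 0.0918 and 0.187 over genes, each mouse best with its own number, which is a hint from the data and not a design. With the replicate number as a block, 4 members were called lower, Cyp4a32 being added (adjusted p = 0.0451, limma). The deposited values do not state depth, and 3 mice a group limit what could be called.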

Other observations

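The genes whose deviations from the group means correlated best with those of a member are listed as a description. Over 198 tested genes of the context lists and 6 mice, the deviations of Cyp4a14 from its group means correlated best with those of the beta-oxidation enzyme Acadvl (Pearson r = 0.918), Igf1 (0.840) and the bile acid enzyme Cyp39a1 (0.834). Those of Cyp4f15 correlated best with Cyp3a59 (0.991), Adh7 (0.920) and the fatty acid transporter Slc27a2 (0.887). Among the members, Cyp4a31 and Cyp4a32 deviated together (r = 0.884), as did Cyp4a12a and Cyp4a32 (0.880) and Cyp4a10 and Cyp4a14 (0.865), while Cyp4f13 and Cyp4a10 deviated in opposite directions (-0.879). These are descriptions of 6 mice that share libraries and scaling, the highest of many values. With the group means removed, fewer than 6 independent deviations remain, so high values can arise between unrelated genes.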
